A study of Mus musculus with 16 samples.

Results

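The nitric oxide and cyclic GMP relaxation genes of the mouse colon were read in 16 single-colour bead arrays of smooth muscle from the proximal colon. They are the 4 genes Gucy1a1, Gucy1b1, Prkg1 and Pde5a, taken by name with every probe that the array's annotation assigns to them. All 4 genes had a probe, and the 6 probes (3 for Gucy1a1, 1 for each of the other genes) were all among the 14102 of 25697 probes kept because they were above background, at a detection p under 0.05, on at least 4 of 16 arrays. The kept probes stand for 9862 named genes when each gene is read by its brightest probe.

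All animals were wild-type C57Bl/6 mice, and each of the 4 groups had 4 arrays. GF mice were germ-free, and SPF mice were conventional specific-pathogen-free mice. C/-Lop mice were germ-free mice given the cecal contents of control donors by gavage, and C/+Lop mice were germ-free mice given the cecal contents of donors that had drunk 0.1% loperamide for 7 days. Loperamide is an opioid agonist that slows intestinal transit, and it was given to the donors and not to the recipients. The recipients were 8 to 10 weeks old, in the paper's methods the age at gavage, and were killed 4 weeks after colonization. The paper's results give a higher age at colonization. For the GF and SPF mice no age was found in the labels. The labels number the arrays within a group (1, 2, 13 and 4 for SPF) without saying whether each was a separate animal, so a p-value here covers only array-to-array spread, which may be technical.

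Nitric oxide is the main inhibitory transmitter of the enteric motor neurons that relax the colon. It diffuses into smooth muscle and neighbouring interstitial cells and binds soluble guanylate cyclase, a heterodimer whose alpha-1 and beta-1 subunits are encoded by Gucy1a1 and Gucy1b1, which then makes cyclic GMP. Cyclic GMP activates the kinase encoded by Prkg1, which lowers calcium release and the calcium sensitivity of the contractile proteins, and the phosphodiesterase encoded by Pde5a hydrolyses cyclic GMP and ends the signal.

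The 2 cyclase subunits are neighbouring genes on the minus strand of chromosome 3, with 0 protein-coding genes between them in RefSeq (GRCm38.p6). Pde5a lies on the plus strand of the same chromosome and Prkg1 on the minus strand of chromosome 19. RefSeq promoter windows, 250 bases before and 50 after a transcription start, were found for 4 of 4 genes, 6 windows in all. The window of the start farthest upstream is shown for each gene, because the levels of Gucy1a1, Gucy1b1 and Prkg1 differed between the same groups and that of Pde5a followed another order. The windows are chr3:82145601-82145900 for Gucy1a1, chr3:82074662-82074961 for Gucy1b1, chr19:31764984-31765283 for Prkg1 and chr3:122728908-122729207 for Pde5a. Capitals mark matches on either strand to CCAAT (read as ATTGG on the other strand) and to the GC box GGGCGG (read as CCGCCC).
Gucy1a1: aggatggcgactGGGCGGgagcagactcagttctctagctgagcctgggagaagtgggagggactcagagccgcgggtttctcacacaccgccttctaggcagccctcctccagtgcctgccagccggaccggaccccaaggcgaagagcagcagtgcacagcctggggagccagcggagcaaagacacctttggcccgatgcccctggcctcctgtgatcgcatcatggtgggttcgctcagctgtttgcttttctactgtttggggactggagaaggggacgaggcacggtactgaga
Gucy1b1: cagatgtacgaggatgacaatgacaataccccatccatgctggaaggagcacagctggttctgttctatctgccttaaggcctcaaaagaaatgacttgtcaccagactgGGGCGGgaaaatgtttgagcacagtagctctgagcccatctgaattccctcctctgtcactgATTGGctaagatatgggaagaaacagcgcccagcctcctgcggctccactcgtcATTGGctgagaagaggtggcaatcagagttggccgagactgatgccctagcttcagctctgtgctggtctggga
Prkg1: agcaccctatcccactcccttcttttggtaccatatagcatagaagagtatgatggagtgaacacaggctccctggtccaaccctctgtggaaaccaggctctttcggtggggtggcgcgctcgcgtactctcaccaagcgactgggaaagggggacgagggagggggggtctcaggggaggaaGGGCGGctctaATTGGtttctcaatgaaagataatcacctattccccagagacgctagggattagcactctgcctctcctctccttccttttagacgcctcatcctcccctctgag
Pde5a: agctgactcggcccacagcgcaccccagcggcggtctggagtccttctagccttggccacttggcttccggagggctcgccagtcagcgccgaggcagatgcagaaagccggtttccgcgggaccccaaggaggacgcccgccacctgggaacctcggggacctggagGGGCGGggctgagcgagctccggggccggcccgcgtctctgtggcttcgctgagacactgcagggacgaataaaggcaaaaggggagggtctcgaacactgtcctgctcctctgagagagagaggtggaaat
The GC box was present 1 time in each of the 4 windows shown. The CCAAT box was present 2 times in the Gucy1b1 window, with first bases at -78 and -24 relative to the start, and 1 time in the Prkg1 window, at -55. It did not occur in the Gucy1a1 and Pde5a windows. The window of the other Gucy1a1 start had no GC box, and that of the other Prkg1 start had no CCAAT box. Which start is used in this tissue was not tested. Of the 32851 mouse windows of this length, 37.4% held the CCAAT box and 35.7% the GC box. The TATA box (TATAAA), present in 13.6% of windows, and the CArG box bound by serum response factor, present in 1.63%, were in none of the 6 windows. The windows shown for Gucy1a1, Gucy1b1, Prkg1 and Pde5a were 62.3%, 52.3%, 55.3% and 66.3% GC, against a median of 52.7% over all windows.

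The arrays had median intensities between 116.6 and 167.6 units and 12364 to 13942 probes above background, and the SPF arrays were at the upper end of both ranges (144.1 to 167.6 units, 13326 to 13942 probes). The labelled tissue was checked on 12 smooth muscle markers such as Myh11, Acta2 and Des. All 12 were measured and at least 11 were detected on every array. Their mean normalized log2 intensity was 10.34 to 11.16 on the GF arrays, 11.07 to 11.84 on the SPF arrays, 10.50 to 10.84 on the C/-Lop arrays and 10.61 to 10.67 on the C/+Lop arrays. SPF replicates 2 and 4 stood apart at 11.84 and 11.76, and both were at 48.1 on the first principal component, where no other array was above 13.6. Epithelial RNA was also present, since all 11 measured epithelial markers of 15 listed were detected on every array, with a mean of 11.35 to 11.83 in GF, 11.07 to 11.70 in SPF, 11.49 to 11.69 in C/-Lop and 11.29 to 11.69 in C/+Lop. On all GF, C/-Lop and C/+Lop arrays this mean was above that of the muscle markers, so the samples were not muscle alone. Means over different probes do not give the share of each tissue. In bulk tissue, fewer cells of a type and less RNA per cell cannot be told apart. Xist, expressed in female cells, was above 6.6 on 5 arrays (SPF replicate 4, C/-Lop replicates 2 and 3 and C/+Lop replicates 2 and 3) and at most 4.99 on the other 11, and with Xist as a covariate the number of these 4 genes called in each comparison was unchanged.

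Gucy1a1, the alpha-1 subunit of soluble guanylate cyclase, was read best by probe ILMN_2591425, whose mean lay at the 86th percentile of kept probes. By this probe the normalized log2 intensity was 9.76, 9.16, 10.06 and 10.04 in GF replicates 1, 2, 3 and 4. It was 10.36, 11.07, 10.33 and 10.66 in SPF replicates 1, 2, 13 and 4. All 4 SPF arrays lay above all 4 GF arrays, and the highest SPF array was replicate 2. The C/-Lop arrays read 9.80, 9.88, 9.88 and 9.60. The C/+Lop arrays read 9.75, 9.75, 9.61 and 9.72, a narrow band inside the GF range. Before normalization the same probe had 650.2 to 1213 intensity units in GF and 1682 to 2874 in SPF.

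The group means of Gucy1a1 were 10.61 ± 0.34 (SD, n = 4) in SPF, 9.79 ± 0.13 in C/-Lop, 9.75 ± 0.42 in GF and 9.71 ± 0.07 in C/+Lop, an order in which SPF stood apart and the other 3 neighbours differed by less than their spread. Gucy1a1 was 1.80-fold higher in SPF than in GF (log2 difference 0.85, SE 0.18, adjusted p = 0.00687, limma). It was 1.76-fold lower in C/-Lop than in SPF (-0.81, adjusted p = 0.00988) and 1.87-fold lower in C/+Lop than in SPF (-0.90, adjusted p = 0.00458). These 3 comparisons share the SPF or GF arrays and are not independent of each other. Against GF the recipients differed by 0.04 (95% interval -0.36 to 0.43) in C/-Lop and by -0.05 (-0.44 to 0.34) in C/+Lop.

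The other 2 Gucy1a1 probes are dimmer, at the 38.9th (ILMN_1241211) and 36.4th (ILMN_1228564) percentile of kept probes. ILMN_1241211 read 5.69 to 6.65 in GF, 6.72 to 7.76 in SPF, 6.07 to 6.84 in C/-Lop and 6.39 to 6.64 in C/+Lop. ILMN_1228564 read 5.42 to 6.36 in GF, 6.65 to 7.64 in SPF, 5.96 to 6.37 in C/-Lop and 6.20 to 6.69 in C/+Lop. Both were higher in SPF than in GF without overlap, by 0.84 (adjusted p = 0.0238) and 0.94 (adjusted p = 0.0103) on the log2 scale. Against SPF, C/-Lop passed for ILMN_1228564 (-0.81, adjusted p = 0.0227) and not for ILMN_1241211 (-0.70, adjusted p = 0.0537), and C/+Lop passed for neither (-0.57, adjusted p = 0.1, and -0.62, adjusted p = 0.056). All 3 probes thus had the same sign in each comparison with SPF, and the dimmer pair had the larger standard errors. The calls of the dimmer probes were lost with single arrays left out, in SPF against GF for ILMN_1241211 without GF replicate 1 or 2 or SPF replicate 2 or 4 (0.63 to 0.82, adjusted p = 0.0517 to 0.0851) and in C/-Lop against SPF for ILMN_1228564 without SPF replicate 2 or C/-Lop replicate 4 (-0.62 and -0.72, adjusted p = 0.0795 and 0.0694). Without SPF replicate 1 or 13, ILMN_1241211 passed in C/-Lop against SPF and ILMN_1228564 in C/+Lop against SPF, and the former also without C/-Lop replicate 3 (adjusted p = 0.028 to 0.0456).

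Gucy1b1, the beta-1 subunit that carries the heme to which nitric oxide binds, was read by probe ILMN_1250403. Its normalized log2 intensity was 6.55, 6.60, 6.89 and 6.59 in GF replicates 1, 2, 3 and 4. It was 6.99, 7.51, 6.87 and 7.13 in SPF replicates 1, 2, 13 and 4. SPF replicate 13, the lowest SPF array, overlapped GF replicate 3, the highest GF array. The C/-Lop arrays read 6.54, 6.39, 6.83 and 6.44 and the C/+Lop arrays 6.08, 6.80, 6.52 and 6.69, all below the lowest SPF array.

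By group mean Gucy1b1 ran in the order SPF 7.12 ± 0.28, GF 6.66 ± 0.15, C/-Lop 6.55 ± 0.20 and C/+Lop 6.52 ± 0.32, and no neighbouring pair in that order passed the test. The SPF minus GF difference was 0.47 (SE 0.16, 95% interval 0.12 to 0.82, adjusted p = 0.056), a 1.38-fold difference in means. The beta-1 subunit was lower in both recipient groups than in SPF, 1.49-fold in C/-Lop (-0.57, adjusted p = 0.0274) and 1.52-fold in C/+Lop (-0.60, adjusted p = 0.0184). Against GF the differences were -0.11 (-0.46 to 0.24) and -0.13 (-0.48 to 0.21). The SPF against GF difference lay close to the threshold and passed without GF replicate 3 or without SPF replicate 13, where the adjusted p over all single arrays left out ranged from 0.0307 to 0.186. It also passed with no background correction (0.25, adjusted p = 0.0464), an offset of 50 (0.36, adjusted p = 0.0469), cyclic loess (0.51, adjusted p = 0.0467) and median scaling (0.64, adjusted p = 0.0132). Without background correction the differences from SPF were -0.29 in C/-Lop and -0.30 in C/+Lop and still passed. The C/-Lop against SPF call was lost without SPF replicate 2 or 4 or C/-Lop replicate 1, 2 or 4 (-0.57 to -0.45, adjusted p = 0.0522 to 0.0977), and the C/+Lop against SPF call without SPF replicate 2 or C/+Lop replicate 1 (-0.47 and -0.45, adjusted p = 0.0667 and 0.0559). The C/-Lop call was also lost with array weights (-0.46, adjusted p = 0.0632) and the epithelial covariate (-0.53, adjusted p = 0.0735). The C/+Lop call was also lost with array weights (-0.43, adjusted p = 0.0689) and with the compared groups alone in the fit (-0.60, adjusted p = 0.057).

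**Figure D1:**
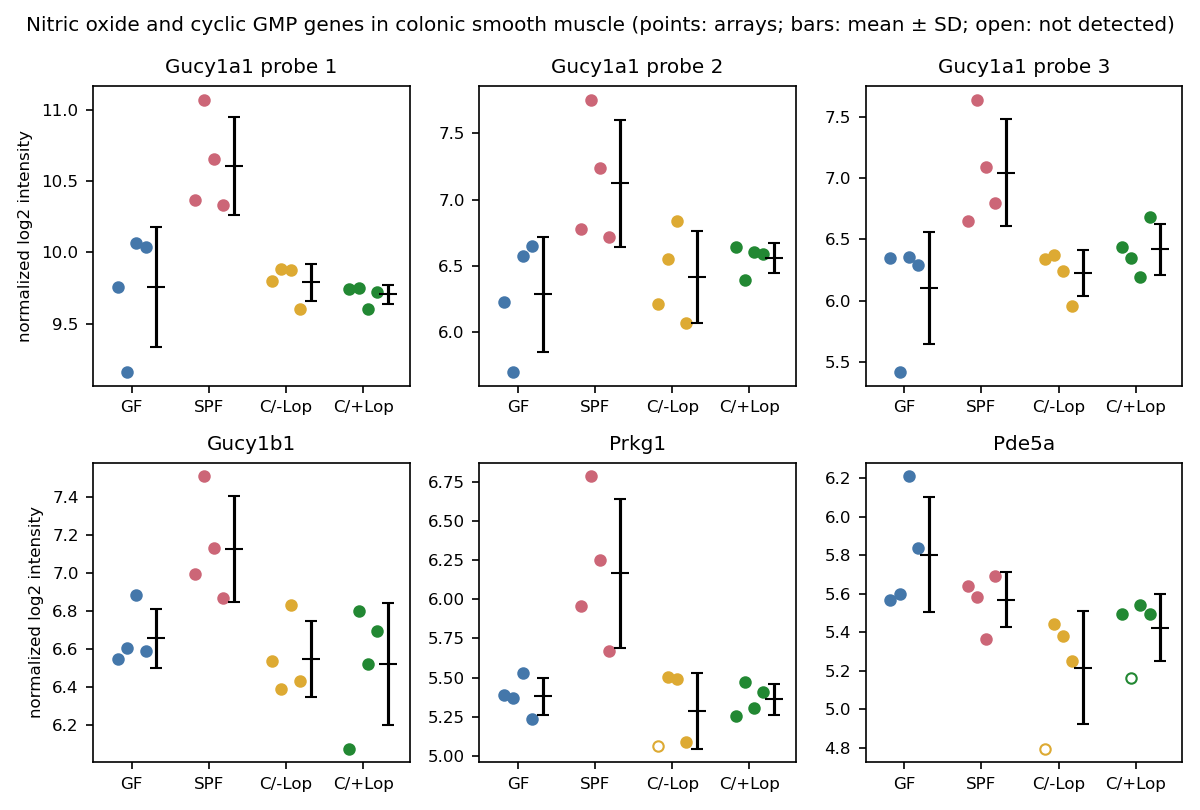
Normalized log2 intensity (vertical axis, a separate scale for each panel) of the 6 probes in the 4 groups, with 1 point per array, an open point where the probe was not above background, and a bar for the mean ± SD of 4 arrays. The SPF arrays lie above the GF arrays without overlap for the 3 Gucy1a1 probes and Prkg1, and Pde5a is highest in GF.

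Prkg1, the cyclic GMP-dependent kinase I that carries the relaxing effect of cyclic GMP in smooth muscle, was read by the dim probe ILMN_2693295 at the 20.5th percentile of kept probes. It was above background on 15 of 16 arrays, all but C/-Lop replicate 1. Its normalized log2 intensity was 5.39, 5.37, 5.53 and 5.23 in GF replicates 1, 2, 3 and 4, against 5.96, 6.79, 5.67 and 6.25 in SPF replicates 1, 2, 13 and 4. Every SPF array was above every GF array, and the SPF arrays spread more widely than those of any other group. The C/-Lop arrays read 5.06, 5.50, 5.49 and 5.09, and the C/+Lop arrays 5.25, 5.47, 5.31 and 5.41.

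The Prkg1 means were 6.17 ± 0.48 in SPF, 5.38 ± 0.12 in GF, 5.36 ± 0.10 in C/+Lop and 5.29 ± 0.24 in C/-Lop, with only SPF apart from its neighbour. The kinase was 1.73-fold higher in SPF than in GF (0.79, SE 0.18, adjusted p = 0.00932). It was 1.84-fold lower in C/-Lop than in SPF (-0.88, adjusted p = 0.0069) and 1.75-fold lower in C/+Lop than in SPF (-0.81, adjusted p = 0.0077). These sizes depend on the background correction of this dim probe. With none, the differences were 0.28 in SPF against GF and -0.30 and -0.28 in C/-Lop and C/+Lop against SPF, and with an offset of 50 they were 0.50, -0.54 and -0.51, all past the threshold. The recipients differed from GF by -0.09 (-0.48 to 0.30) in C/-Lop and by -0.02 (-0.41 to 0.37) in C/+Lop.

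Pde5a, the phosphodiesterase 5 that degrades cyclic GMP and is the target of sildenafil, followed another order. Its probe ILMN_2764541, at the 19.5th percentile, was not above background on C/-Lop replicate 1 and C/+Lop replicate 2. The normalized log2 intensity was 5.57, 5.60, 6.21 and 5.84 in GF replicates 1, 2, 3 and 4 and 5.64, 5.58, 5.69 and 5.36 in SPF replicates 1, 2, 13 and 4. The C/-Lop arrays read 4.79, 5.44, 5.38 and 5.25 and the C/+Lop arrays 5.50, 5.16, 5.54 and 5.49. After normalization all 8 recipient arrays were below the lowest GF array, narrowly for C/+Lop (5.54 against 5.57), while SPF overlapped GF and both recipient groups. Before normalization the recipients overlapped GF, at 147.4 to 165 intensity units in GF, 117.9 to 148.2 in C/-Lop and 122.8 to 165.8 in C/+Lop.

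The Pde5a means fell in the order GF 5.80 ± 0.30, SPF 5.57 ± 0.14, C/+Lop 5.42 ± 0.18 and C/-Lop 5.22 ± 0.29, and no pair passed the test. The lowest adjusted p was that of C/-Lop against GF, a difference of -0.59 (SE 0.16, 95% interval -0.93 to -0.25, adjusted p = 0.06). C/+Lop was at -0.38 against GF (-0.72 to -0.04, adjusted p = 0.155), and SPF was at -0.23 against GF (-0.57 to 0.10, adjusted p = 0.315). Before normalization the Pde5a mean was 175.4 intensity units in SPF and 153.3 in GF, the reverse of the normalized order, and under all settings of the normalization and the fit that were run the difference stayed between -0.39 and -0.08. With array weights, or with the smooth muscle marker mean as a covariate, the C/-Lop against GF difference passed (-0.48, adjusted p = 0.047, and -0.58, adjusted p = 0.046), and without background correction it was -0.18. Calls among all genes in C/-Lop against GF lay between 72 and 828 over the alternatives run. The number for each setting is not given here, so the gained call cannot be read as particular to Pde5a.

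SPF against GF compared mice that had carried a microbiota with mice that had none. Of the 4 genes, 2 were called higher (Gucy1a1 and Prkg1) and 0 lower, in a comparison in which 10.9% of the 9862 genes were called higher and 9.55% lower. Both genes were also higher without overlap between the groups, as were 9.17% of all genes. The difference of Gucy1a1 from Pde5a in this comparison was 1.08 on the log2 scale, that of Prkg1 from Pde5a 1.02 and that of Gucy1b1 from Pde5a 0.70, each without overlap between the arrays of the 2 groups. These pairs share the dim Pde5a probe and are not independent. The share of all gene pairs without overlap was not counted, so the lack of overlap cannot be read as particular to these pairs. An exact two-sided permutation test gave p = 0.0286 for each, the smallest that 4 arrays against 4 allow, and 0.0572 after adjustment over the 6 pairs of genes, a test chosen after the values were seen. Gucy1a1 and Prkg1 differed from each other by 0.06 (exact permutation p = 0.829, adjusted 0.829), and Gucy1b1 moved by 0.38 less than Gucy1a1 and 0.32 less than Prkg1 (exact permutation p = 0.0571 and adjusted p = 0.0685 for each).

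The smooth muscle markers differed in the same comparison as the 2 calls, and the cause of either difference was not tested. In SPF against GF 9 of 12 smooth muscle markers were called higher and 0 lower, with a median difference of 0.83 beside 0.01 over all genes. With the muscle marker mean as a covariate the SPF minus GF difference was 0.24 for Gucy1a1 (adjusted p = 0.5), 0.23 for Prkg1 (adjusted p = 0.572), 0.07 for Gucy1b1 (adjusted p = 0.889) and -0.39 for Pde5a (adjusted p = 0.391), and 0 of 4 genes were called. The muscle marker mean itself differed between the groups, so this covariate also takes up part of the group difference. Calls among all genes fell to 85 at the lowest over the alternatives run, so 0 of 4 here cannot be read as particular to these genes. Gucy1a1 minus the muscle marker mean ran from -1.18 to -0.57 in GF and from -1.10 to -0.73 in SPF, and Prkg1 minus that mean from -5.63 to -4.97 and from -5.50 to -5.05, so the groups overlapped. GF replicate 3 had a higher muscle marker mean (11.16) than SPF replicates 1 and 13 (11.09 and 11.07). It read lower than both for Gucy1a1 (10.06 against 10.36 and 10.33) and for Prkg1 (5.53 against 5.96 and 5.67). For Gucy1b1 it lay between them (6.89 against 6.99 and 6.87), and for Pde5a above both (6.21 against 5.64 and 5.69). These are single arrays, picked after the values were seen. Pde5a minus the muscle marker mean was -5.12 to -4.74 in GF, above all SPF arrays (-6.39 to -5.38), all C/-Lop arrays (-5.81 to -5.24) and all C/+Lop arrays (-5.45 to -5.13). Because the muscle markers were higher in SPF, this subtraction also lowers an unchanged gene there, and the share of all genes was not counted. The lowest GF array (-5.118) and the highest C/+Lop array (-5.128) nearly met. With the epithelial marker mean as the covariate Gucy1a1 (0.66, adjusted p = 0.0164) and Prkg1 (0.66, adjusted p = 0.031) still passed.

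The 2 SPF arrays with the most muscle marker signal also carried the most Gucy1a1 and Prkg1. Without SPF replicates 2 and 4 the difference from GF was 0.59 for Gucy1a1 (adjusted p = 0.0925), 0.43 for Prkg1 (adjusted p = 0.0999) and 0.27 for Gucy1b1, and 0 of 4 genes were called. With any single array left out both calls held, at 0.65 to 0.95 for Gucy1a1 and 0.58 to 0.95 for Prkg1. Fitted on the GF and SPF arrays alone, neither passed (adjusted p = 0.0609 and 0.0598). Calls among all genes in SPF against GF also fell under the alternatives run, to 85 at the lowest. The number for each setting is not given here, so 0 of 4 cannot be read as particular to these genes.

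**Figure D2:**
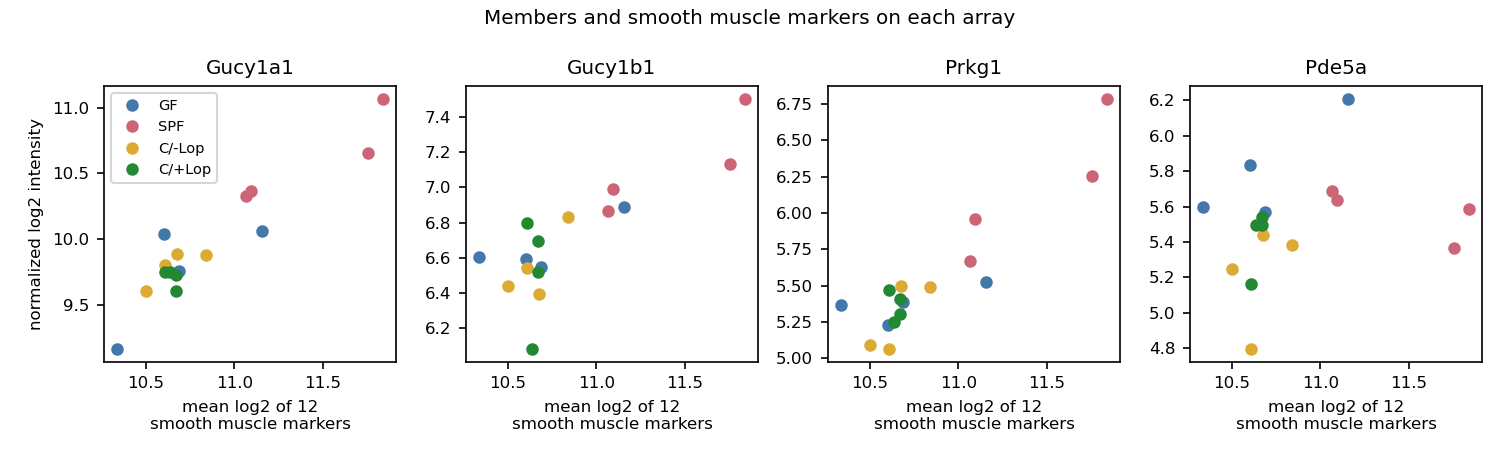
Normalized log2 intensity of each gene (vertical axis) against the mean log2 intensity of 12 smooth muscle markers (horizontal axis), with 1 point per array coloured by group. The SPF arrays reach furthest right, at 11.07 to 11.84, where Gucy1a1, Gucy1b1 and Prkg1 are also highest, while Pde5a is not.

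C/+Lop against C/-Lop asked whether recipients of microbiota from loperamide-treated donors differed in this tissue from recipients of microbiota from control donors. None of the 4 genes was called, and none of all 9862 genes was (0%, by limma and by the methods' t-test), with 608 of the 14102 kept probes at an unadjusted p under 0.05. The differences were -0.08 for Gucy1a1 (95% interval -0.48 to 0.31), -0.03 for Gucy1b1 (-0.38 to 0.32), 0.07 for Prkg1 (-0.32 to 0.46) and 0.21 for Pde5a (-0.13 to 0.55). The unadjusted p was 0.653, 0.87, 0.697 and 0.21 in the same order, each with an adjusted p of 1. The arrays of the 2 groups overlapped for all 4 genes. The 4 intervals end at -0.48 and 0.55 at the widest, and each includes 0.

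C/-Lop and C/+Lop against GF compared colonized with uncolonized germ-free mice and share the GF arrays. In C/-Lop against GF 1.46% of genes were called higher and 1.3% lower, and in C/+Lop against GF 3.33% higher and 3.86% lower. None of the 4 genes was called in either comparison. Pde5a was lower than GF without overlap in both, as were 7.06% of all genes in C/-Lop and 9.41% in C/+Lop. Against SPF, whose arrays these comparisons share, Gucy1a1, Gucy1b1 and Prkg1 (3 of 4 genes) were called lower in both recipient groups, where 9.44% of genes were called lower and 6.94% higher in C/-Lop and 11.9% lower and 9.26% higher in C/+Lop. The 3 genes also lay below SPF without overlap in both groups, as did 11.9% of all genes in C/-Lop and 12.5% in C/+Lop. Pde5a was at -0.35 (-0.69 to -0.02, adjusted p = 0.132) in C/-Lop and at -0.15 (-0.48 to 0.19, adjusted p = 0.548) in C/+Lop.

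The smooth muscle markers differed in the same comparisons with SPF, 9 of 12 lower in each recipient group with medians of -0.88 and -0.92, and 0 of 12 were called in either comparison with GF. Markers of other cells were also lower than SPF in C/-Lop and C/+Lop, with 4 and 4 of 7 for fibroblasts, 2 and 2 of 2 for PDGFRA-positive cells, 3 and 2 of 7 for endothelium and pericytes, 1 and 2 of 3 for interstitial cells of Cajal and 1 and 1 of 5 for antibody-secreting cells. None of the 9 neuronal or 11 epithelial markers was. With the muscle marker mean as a covariate, C/-Lop against SPF was -0.17 for Gucy1a1, -0.16 for Gucy1b1 and -0.29 for Prkg1, C/+Lop against SPF was -0.25, -0.18 and -0.21, and 0 of 4 genes were called in each (adjusted p of at least 0.487). Without SPF replicates 2 and 4 the values were -0.56, -0.38 and -0.53 in C/-Lop and -0.64, -0.41 and -0.45 in C/+Lop, again with 0 calls. Calls among all genes also fell under the alternatives run, at the lowest to 20 in C/-Lop and 68 in C/+Lop against SPF. The number for each setting is not given here, so 0 of 4 cannot be read as particular to these genes.

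**Figure D3:**
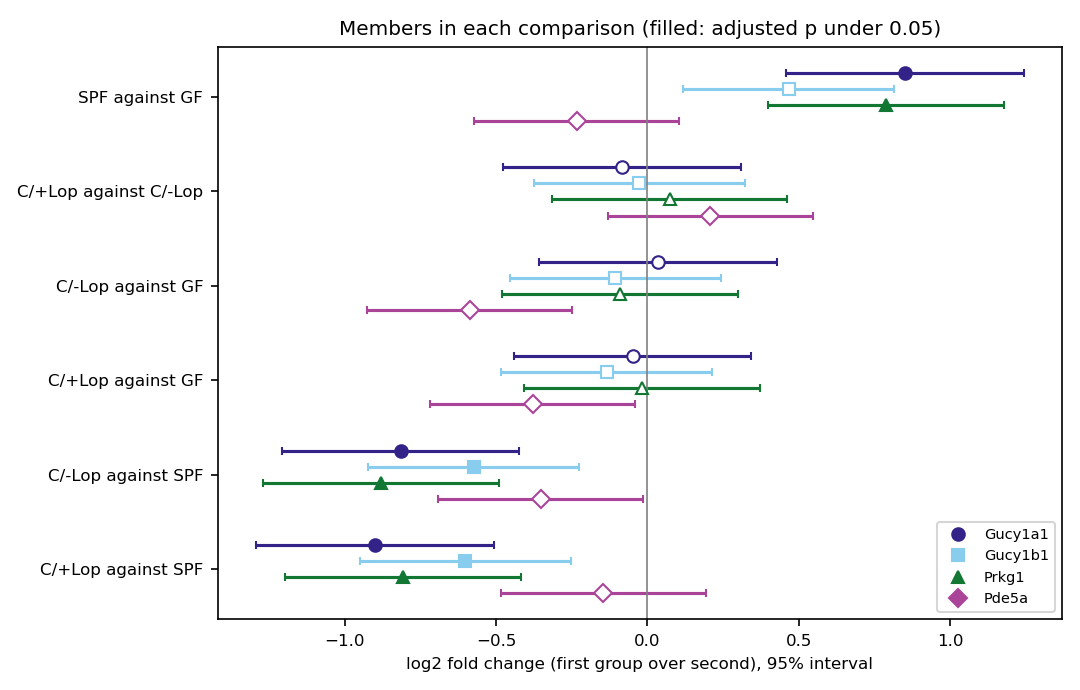
Log2 fold change (horizontal axis, first group over second) with its 95% interval for the 4 genes in the 6 comparisons, Gucy1a1 by its brightest probe, with filled symbols where the adjusted p was under 0.05. The 8 filled symbols all lie in comparisons with SPF, 2 in SPF against GF and 3 in each comparison of recipients with SPF.

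Other genes of the pathway were read from 4 lists, by the brightest probe of each gene. Over all genes, 10.9% were called higher and 9.55% lower in SPF against GF. In the list of nitric oxide synthesis and supply 16 of 19 genes were measured, and in that comparison 0 were higher and 5 lower (median -0.19, all genes 0.01). They were Asl, which makes arginine for the synthases (-0.70, adjusted p = 0.00662), Nosip (-0.41, adjusted p = 0.0102) and Nostrin (-0.75, adjusted p = 0.0108), whose proteins bind nitric oxide synthases, and Qdpr (-0.42, adjusted p = 0.0153) and Pts (-0.33, adjusted p = 0.0441) of tetrahydrobiopterin metabolism. The second Asl probe gave -0.73 (adjusted p = 0.00365), while the other Nosip probes, at -0.18 and -0.36, did not pass. Of the synthases themselves Nos1 was near background. Nos3 was above background on 3 of 4 GF, 4 of 4 SPF, 4 of 4 C/-Lop and 3 of 4 C/+Lop arrays. Nos1, the neuronal synthase, was above background on 0 of 4 GF, 4 of 4 SPF, 0 of 4 C/-Lop and 1 of 4 C/+Lop arrays, with means of 4.84, 5.13, 4.91 and 4.97. Its SPF against GF difference did not pass (adjusted p = 0.113) and no fold is given, because the GF signals were not above background. Nos3, the endothelial synthase, was 5.85 ± 0.49 in GF and 6.43 ± 0.33 in SPF (0.58, adjusted p = 0.139, with 0.51 and 0.42 by its other probes). Nos2, the inducible synthase, had a probe that was not kept. In C/+Lop against SPF, where 9.26% of all genes were called higher, 2 genes of the list were. They were Asl (0.58, adjusted p = 0.0153) and Spr, an enzyme of tetrahydrobiopterin synthesis (0.39, adjusted p = 0.00807). With median scaling in place of quantile normalization 0 were higher and 3 lower.

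Among other sources of cyclic GMP 6 of 10 genes were measured, and beside 9.55% of all genes 1 was lower in SPF than in GF (median -0.10). It was Gucy2c, the receptor guanylate cyclase of the intestinal epithelium that binds guanylin and uroguanylin (-0.67, adjusted p = 0.0484). It read 6.87 to 7.40 in GF, 5.91 to 7.05 in SPF, 7.09 to 7.54 in C/-Lop and 7.21 to 7.79 in C/+Lop, and it was higher than SPF in both recipient groups (0.87, adjusted p = 0.0184, and 1.09, adjusted p = 0.00487). Epithelial markers were called lower in SPF against GF in 3 of 11 cases, with a median of -0.17. With the epithelial marker mean as a covariate Gucy2c was at -0.52 in SPF against GF (adjusted p = 0.15) and at 0.70 and 1.03 in C/-Lop and C/+Lop against SPF (adjusted p = 0.0632 and 0.00479). Without SPF replicates 2 and 4 it was at -0.18, 0.37 and 0.60 in these comparisons (adjusted p = 0.615, 0.245 and 0.0622), and with the muscle marker covariate at 0.05, 0.11 and 0.32, with no call in either setting. The natriuretic peptide receptors Npr1, Npr2 and Npr3 did not pass in any of the 6 comparisons.

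Of the other phosphodiesterases of cyclic nucleotides 11 of 18 were measured. In SPF against GF 3 were higher and 0 lower (median 0.20), beside 10.9% and 9.55% of all genes. Pde1b and Pde1a, which encode calcium- and calmodulin-dependent enzymes, differed by 0.85 (adjusted p = 0.00478) and 0.63 (adjusted p = 0.0447). Pde3b, an enzyme that cyclic GMP inhibits, was the third gene called, but it was above background on 1 of 4 GF arrays only, so its difference is not given. Pde1b read 7.50 to 8.24 in GF and 8.50 to 9.24 in SPF. It was lower than SPF in C/-Lop (-0.77, adjusted p = 0.0086) and in C/+Lop (-0.95, adjusted p = 0.00248), where its arrays read 7.90 to 8.23 and 7.79 to 8.02. Pde1b was thus called in the same 3 comparisons, and in the same directions, as Gucy1a1 and Prkg1. Pde1a was at -0.67 in C/-Lop against SPF (adjusted p = 0.0378) and at -0.57 in C/+Lop against SPF (adjusted p = 0.0615). Of its dimmer probes, ILMN_2754377 passed in all 3 comparisons (0.66, -0.75 and -0.84) and ILMN_3146952 only in those of recipients with SPF (-0.63 and -0.67). Without SPF replicates 2 and 4 Pde1b was at 0.63 in SPF against GF and -0.55 and -0.72 in C/-Lop and C/+Lop against SPF, with a call in the last (adjusted p = 0.0652, 0.1 and 0.0341). With the muscle marker covariate Pde1b passed in none of them.

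In the list of partners and targets of the cyclic GMP kinase 17 of 23 genes were measured. In SPF against GF 6 were higher and 0 lower (median 0.03), beside 10.9% and 9.55% of all genes. Kcnmb1, the smooth muscle beta subunit of the large-conductance potassium channel, was highest in SPF at 6.30 to 7.33 against 5.39 to 5.97 in GF (1.06, 2.09-fold, adjusted p = 0.0107). Its pore-forming partner Kcnma1 differed by 0.50 (adjusted p = 0.0431). Irag1, the substrate through which the kinase restrains calcium release at the inositol trisphosphate receptor (Mrvi1 in the annotation used), read 9.77 to 10.83 in GF and 10.52 to 11.59 in SPF (0.77, adjusted p = 0.0293). The other 3 were its relative Irag2 (0.52, adjusted p = 0.0323), the calcium pump of the sarcoplasmic reticulum Atp2a2 (0.43, adjusted p = 0.0426, with 0.29 and no pass by its other probe) and Rock1 (0.32, adjusted p = 0.0451). Ppp1r14a, the inhibitor of myosin phosphatase, was at 0.68 (adjusted p = 0.0831), with 0.05 by its other probe.

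Prkg2, the second cyclic GMP-dependent kinase, known from the intestinal epithelium, was singled out after its values were seen because its sign was opposite to that of Prkg1. It was at -1.15 in SPF against GF with a wide interval (-2.15 to -0.15, adjusted p = 0.0946) and at 1.15 in C/+Lop against SPF (0.15 to 2.15, adjusted p = 0.0914).

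Against SPF, 5 of these 17 kinase partners were lower in C/-Lop and 6 in C/+Lop, beside 9.44% and 11.9% of all genes. In either group 0 were higher (medians -0.16 and -0.36). With median scaling 8 and 9 were lower, with the muscle marker covariate 0 and 0, and without SPF replicates 2 and 4 1 (Kcnmb1, -1.03, adjusted p = 0.0333) and 0, with Ppp1cb higher in C/+Lop (0.59, adjusted p = 0.0277). Kcnmb1 was at -1.53 (adjusted p = 0.003) in C/-Lop and -1.13 (adjusted p = 0.00755) in C/+Lop, and Irag1 at -0.86 (adjusted p = 0.0206) and -0.88 (adjusted p = 0.0158). Without SPF replicates 2 and 4 Irag1 was at -0.40 and -0.41, and with the muscle marker covariate at 0.10 in both. Ppp1r14a was at -1.05 (adjusted p = 0.016) and -0.99 (adjusted p = 0.0175), while its other probe did not pass. Rgs2, a regulator of G protein signalling that the kinase activates, was lower in C/+Lop than in SPF (-0.54, adjusted p = 0.0272) and than in GF (-0.65, adjusted p = 0.0248), reading 5.16 to 5.70 against 5.92 to 6.52 in GF. Rock1 was higher in C/+Lop than in GF (0.36, adjusted p = 0.0493). Rgs2 and Rock1 were the only genes of the 4 lists called in either comparison of recipients with GF. In C/+Lop against GF 3.33% of all genes were called higher and 3.86% lower. No gene of the lists was called in C/+Lop against C/-Lop.

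Most of the pathway calls in SPF against GF were also lost under these settings, though not every difference shrank. With the muscle marker mean as a covariate, the SPF against GF calls in the 4 lists came to 1, Asl (-0.91, adjusted p = 0.041), and without SPF replicates 2 and 4 to 2, Asl (-0.85, adjusted p = 0.0145) and Nosip (-0.42, adjusted p = 0.0439), both settings chosen for the lists after seeing the data. With median scaling the list of nitric oxide synthesis had 2 lower genes in SPF against GF, Nostrin and Asl. In the kinase partner list 0 of 17 genes passed in SPF against GF with the covariate or without those arrays. There Kcnmb1 was at 0.30 and 0.57, Irag1 at -0.14 and 0.31, Kcnma1 at 0.04 and 0.36 and Atp2a2 at -0.04 and 0.24, while Irag2, at 0.66 and 0.53, and Rock1, at 0.41 and 0.28, differed by about as much as before or more.

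**Figure D4:**
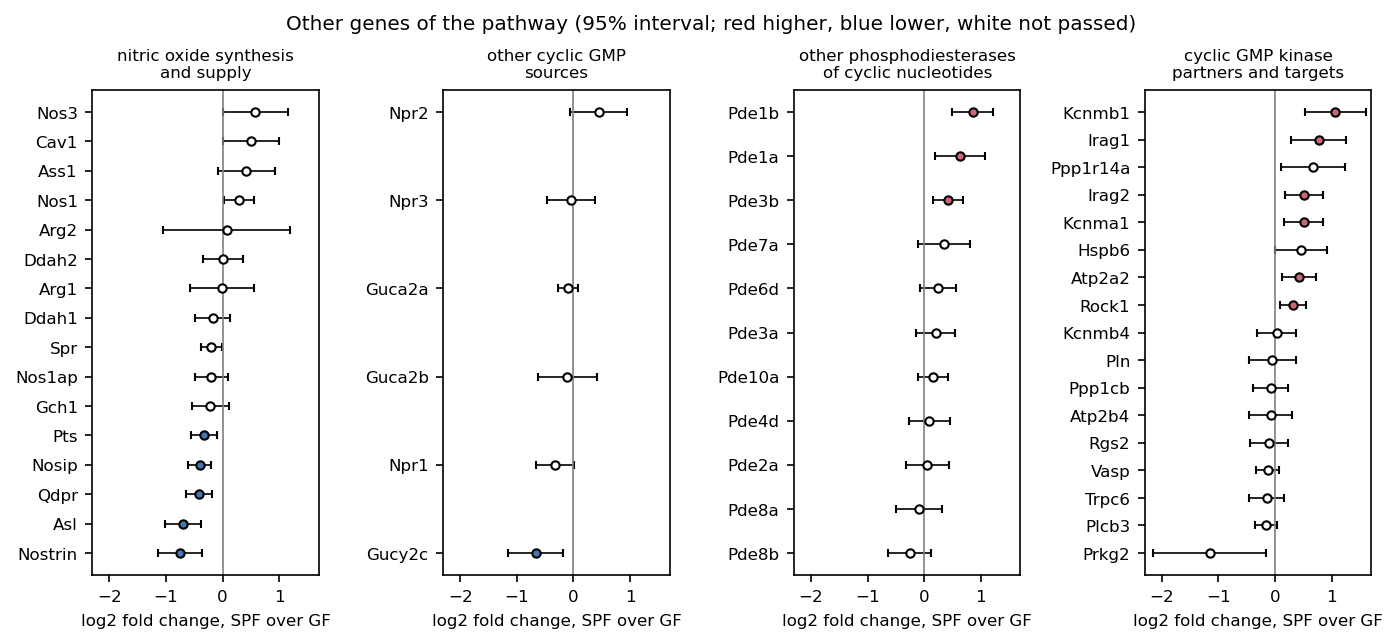
Log2 fold change in SPF over GF (horizontal axis) with its 95% interval for each measured gene of the 4 pathway lists, with red points for genes called higher, blue for genes called lower and white for genes that did not pass. The 5 blue points in the list of nitric oxide synthesis and the 6 red points among the kinase partners are the largest sets of calls.

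Markers of several other cell types also differed in SPF against GF, where 10.9% of all genes were called higher. All 3 measured of 4 listed markers of interstitial cells of Cajal, pacemaker cells that also express the nitric oxide receptor, were called higher. So were 5 of 7 endothelial and pericyte markers, 4 of 7 fibroblast markers and 4 of 5 measured markers of antibody-secreting cells. Of the PDGFRA-positive cell markers 1 of 2 measured was called higher, a single gene. For enteric neurons it was 1 of 9 measured markers, near the share of all genes. In these lists 0 markers were lower. The mean log2 intensity of the interstitial cell markers was 5.51 to 5.89 in GF, 6.18 to 7.04 in SPF, 5.60 to 6.29 in C/-Lop and 5.80 to 5.99 in C/+Lop, and Kit, their defining marker, was not analysed here. The part of these cells in the levels of the cyclase, the kinase and the phosphodiesterase was not tested.

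The genes whose log2 values were most like those of each gene over the 16 arrays were named by Pearson's r, as a description in which all arrays share 1 normalization. They were Nav1 (0.974), Prnp (0.974) and Hspg2 (0.972) for Gucy1a1, Cep120 (0.919), Rgs1 (0.918) and Nfe2l1 (0.913) for Gucy1b1, and Clip4 (0.951), Mtcl1 (0.945) and Prkacb (0.944) for Prkg1. For Pde5a the closest were Mpp1 (0.815), Tpcn2 (0.773) and Treh (0.765). After each group's mean was subtracted the closest were Angpt2 (0.963), Akap12 (0.959) and Lmo2 (0.956) for Gucy1a1, Ppp3r1 (0.846), Tcf25 (0.834) and Foxp2 (0.831) for Gucy1b1, Nfatc1 (0.935), B230219D22Rik (0.901) and Nudt11 (0.896) for Prkg1, and Fem1al (0.824), Pkhd1l1 (0.8) and Nyap1 (0.793) for Pde5a. None of the genes named over all arrays was named again after the group means were removed.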

How the data were processed

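RNA of the proximal colonic smooth muscle was measured on 16 single-colour Illumina bead arrays. The authors deposited a table of non-normalized intensity per probe with its detection p-value, its bead count and its bead error, and a table of normalized log2 values for 16029 probes. Limma is the tool in the submitters' processing notes. The extraction of scanner intensities is not given in the sources used here, nor is a limma version. The methods of the paper do not describe the arrays and name Student's t-test. The 4 genes and all lists were chosen with earlier results of these data known.

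Intensities were normalized here with limma 3.58.1 in R 4.3.3 (neqc: normexp background correction from the detection p-values, offset 16, quantile normalization, log2). This came within 0.0251 of the deposited log2 values. Background correction sets the size of differences of dim probes, which are smaller without it or with a larger offset, and quantile normalization sets all arrays to 1 distribution. A probe was kept if 4 or more of 16 arrays had a detection p under 0.05. Probes were named through the platform annotation (15096 probes) with symbols updated by Entrez identifier (15091 matched), and 781 kept probes had no name. Each gene was read by its probe with the highest mean. A group-means model over the 16 arrays (12 residual degrees of freedom) gave 6 comparisons, with moderated tests by eBayes and Benjamini-Hochberg adjustment over all kept probes, and an adjusted p under 0.05 was called. Percentages of called genes are over the 9862 genes. Pathway genes were named if among the up to 4 genes of a list with the smallest p in SPF against GF, or the up to 2 in each other comparison, that passed, and Nos1, Nos2, Nos3, Irag1, Kcnma1, Kcnmb1, Ppp1r12a and Rgs2 always. Ppp1r12a was not analysed here.

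Each intensity of the 4 genes was a mean over 25 to 56 beads (median 37), with a bead standard error of 1.83% to 5.21% of the intensity. The 93 of 96 values above background include all those of Gucy1a1 and Gucy1b1, and 4 arrays a group limit the precision. Alternatives were the deposited log2 values, no background correction, an offset of 50, cyclic loess, median scaling, no filter or 8 of 16 arrays, array weights, the compared groups alone, the replicate number as a block, marker or Xist covariates, the methods' t-test and arrays left out. For the pathway lists the 4 settings used (2 marker covariates, median scaling, and SPF replicates 2 and 4 left out) were chosen after seeing the data. The fitting procedure was tested on simulated data. Promoter windows were read with Python 3.11.15 from RefSeq (GRCm38.p6).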

Additional observations from a re-analysis of the deposited data

Results flagged for a closer look

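In 3 of 24 groups of 4 arrays (6 probes in 4 groups), 1 array lay far from the other 3 by Dixon's ratio, where chance flags about 1 group in 20. For the third Gucy1a1 probe, ILMN_1228564, GF replicate 2 was lowest at a log2 intensity of 5.42, and that array was also the lowest GF array for the other 2 Gucy1a1 probes (9.16 and 5.69) and had the lowest smooth muscle marker mean of all arrays (10.34). For Gucy1b1, GF replicate 3 was highest at 6.89, and that array had the highest smooth muscle marker mean of the GF arrays (11.16). For Pde5a, C/+Lop replicate 2 was lowest at 5.16, below the detection threshold.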

How the results depend on the processing

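Over the 4 genes and 6 comparisons, 476 of 540 values from alternatives kept their sign and their side of the threshold, 36 lost a call, 9 gained one and 19 changed sign. The number of the 4 genes called in SPF against GF fell to 0 with only the groups compared in the fit, with the smooth muscle covariate, by the methods' t-test and without SPF replicates 2 and 4, and rose to 3 (Gucy1b1 added) with no background correction, the larger offset, cyclic loess, median scaling and the replicate block. In C/-Lop against SPF it fell to 0 with the smooth muscle covariate, by the methods' t-test and without SPF replicates 2 and 4. In C/+Lop against SPF it fell to 0 with that covariate and without those arrays, and to 1 by the t-test. In C/-Lop against GF it rose to 1 (Pde5a) with array weights and with the smooth muscle covariate. Calls among all genes there lay between 72 and 828 over the alternatives run, so this gain cannot be read as particular to Pde5a. With 1 array left out at a time the number of the 4 genes called was 2 to 3 in each of the comparisons with SPF. The cause of these changes was not tested.

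Signs changed only in values that had not passed. Gucy1a1 in C/-Lop against GF was -0.12 with median scaling, which itself moved the median gene by -0.11 there, -0.0232 with array weights and -0.00204 with the Xist covariate. Array weights also gave -0.00218 for ILMN_1241211 and 0.0296 for Gucy1b1 in C/+Lop against C/-Lop, and 0.0117 in C/-Lop and 0.0431 in C/+Lop against GF for Prkg1. Median scaling gave 0.016 for Gucy1b1 in C/+Lop against C/-Lop, and the epithelial covariate -0.0183 for ILMN_1241211 and -0.0131 for Prkg1 there. The smooth muscle covariate gave 0.15 and 0.30 for ILMN_1241211 in C/-Lop and C/+Lop against SPF, 0.11 for ILMN_1228564 and 0.0216 for Pde5a in C/+Lop against SPF, and 0.0188 for Prkg1 in C/+Lop against GF.

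With 1 array left out at a time, C/-Lop against GF ran from -0.16 to 0.14 for Gucy1a1, -0.062 to 0.26 for ILMN_1241211 and -0.11 to 0.21 for ILMN_1228564. C/+Lop against GF ran from -0.25 to 0.0539 for Gucy1a1, -0.23 to 0.0139 for Gucy1b1 and -0.0679 to 0.0304 for Prkg1, and C/+Lop against C/-Lop from -0.12 to 0.12 for Gucy1b1 and -0.00173 to 0.14 for Prkg1.

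Same-numbered arrays correlated in their deviations from the group means at -0.545 to -0.0862 between SPF and GF and at 0.0178 to 0.357 between C/-Lop and C/+Lop, where Xist was also high in replicates 2 and 3 of both groups. No comparison had every pair above 0.1, so the numbers were not used as pairs. With the replicate block (SPF replicate 13 as its own block), 3 of the 4 genes were called in SPF against GF, with Gucy1b1 at 0.61 (adjusted p = 0.0203), and 3 in each recipient group against SPF, with 0 in the other comparisons. Background handling set the size of the dim probes' differences. Without background correction or with an offset of 50, Prkg1 was at 0.28 or 0.50 in SPF against GF, -0.30 or -0.54 in C/-Lop and -0.28 or -0.51 in C/+Lop against SPF, all still called.

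Counts over all genes moved more. Over all alternatives they lay between 85 and 2501 genes in SPF against GF, 20 and 2350 in C/-Lop against SPF and 68 and 2347 in C/+Lop against SPF. In C/-Lop against GF they lay between 72 and 828, and in C/+Lop against GF between 295 and 1360.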
